A study of Mus musculus with 19 samples.

Results

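The 10 genes described here are Gpd1, Gpam, Agpat2, Agpat3, Lpin1, Lpin2, Lpin3, Mogat1, Dgat1 and Dgat2, which encode enzymes that build triglyceride in the liver. They were taken by symbol from a table of 24054 mouse genes, and all 10 were found. Liver RNA was sequenced from 3 L-RalyKO mice and 3 control mice of the C57BL/6 strain, fed chow. All 6 animals carried Raly flox/flox alleles, in which exons 3 and 4 are flanked by loxP sites, and all 6 received an adeno-associated virus 4 weeks before euthanasia. In the L-RalyKO group the virus was AAV8.TBG.Cre, which expresses Cre recombinase from a promoter active in hepatocytes, so other liver cells keep the gene. In the control group it was AAV8.TBG.GFP, and the labels call these animals wild type. The study used males unless stated otherwise, and the age of these mice is not given in the sources used here. The methods of the RNA sequencing name the chow diet but not whether food was withdrawn before collection, while fasting is mentioned for a qPCR measurement in such livers. RALY is an RNA-binding protein of the heterogeneous nuclear ribonucleoprotein family, and the comparison asks how its loss from hepatocytes changes liver transcripts.

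Triglyceride is assembled on a backbone of glycerol 3-phosphate, which hepatocytes make from a glycolytic intermediate or from glycerol. Acyltransferases add a first fatty acid to give lysophosphatidate and a second to give phosphatidate, lipins remove the phosphate to give diacylglycerol, and diacylglycerol acyltransferases add the last fatty acid. Diacylglycerol is also a precursor of the main membrane phospholipids, and Lpin1 is known both as an enzyme and as a nuclear coregulator that is induced in the fasted liver.

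Values are scaled RPM (reads-per-million, over a scaled library size) and are not divided by gene length. Recovered library totals were between 28302983 and 38052705 reads, so that 3 reads correspond to a value of 0.0789 to 0.105. Raly itself was at 50.1, 48.6 and 46.8 in the control mice and at 6.34, 6.61 and 7.39 in the L-RalyKO mice (log2 fold change −2.67, SE 0.069), and the groups did not overlap. Markers of hepatocytes were abundant in every library, with a summed level of 83725 to 93114 in control and 94082 to 95005 in L-RalyKO livers, and 1 of the 7, Hnf4a, was higher (0.55, limma adjusted p = 0.0155, but 0.051 to 0.061 without L-RalyKO mouse 1, control mouse 1 or control mouse 2). Of 20 tested markers of macrophages (6), endothelial cells (5), stellate cells (6) and cholangiocytes (3), 0 passed in limma, edgeR or limma voom, 1 passed in DESeq2 and 1 had an unadjusted p under 0.05. Lymphocyte and pancreas markers were all too low to be tested. Among 10 adipocyte markers, 3 were tested and 1 was lower (Cfd, log2 fold change −2.10, limma adjusted p = 0.0318). Cfd passed the filter on low values only through the controls, with means of 6.27 and 0.479, and it kept its call in 9 of 15 alternatives. The call was lost with edgeR (adjusted p = 0.143), limma voom (0.063), no intensity trend (0.059) or all genes with a read (0.068), and without L-RalyKO mouse 1 (0.09996) or 3 (0.093). In whole liver, fewer cells of a type and less RNA per cell cannot be told apart.

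Of the 10 genes, Lpin1 rose in L-RalyKO liver, Mogat1, Gpd1 and Gpam fell, and 6 did not pass the test (limma on log2(value + 1), Benjamini-Hochberg adjusted p under 0.05 over 11580 tested genes). Over all tested genes, 6.55% passed, 3.36% as higher and 3.19% as lower, and with libraries scaled by total count instead the higher and lower calls were 324 and 469 in place of 389 and 369. All 10 genes had a mean value of at least 1 and so were tested, Mogat1 only through its control level, since its L-RalyKO mean was 0.745. Values of the groups did not overlap for 5 of the 10 genes, which were higher for Lpin1 and Dgat2 and lower for Gpam, Mogat1 and Gpd1, against 28.1% of all tested genes (14.4% higher and 13.7% lower). The median log2 fold change of the 10 genes was −0.03, and that of all tested genes was 0.00. With 3 mice against 3, the exact permutation test cannot give a two-sided p below 0.1, and each gene whose groups did not overlap had this p. The limma p-values set each difference against the spread between these mice, with each gene's variance drawn toward a trend over all tested genes.

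**Figure D1:**
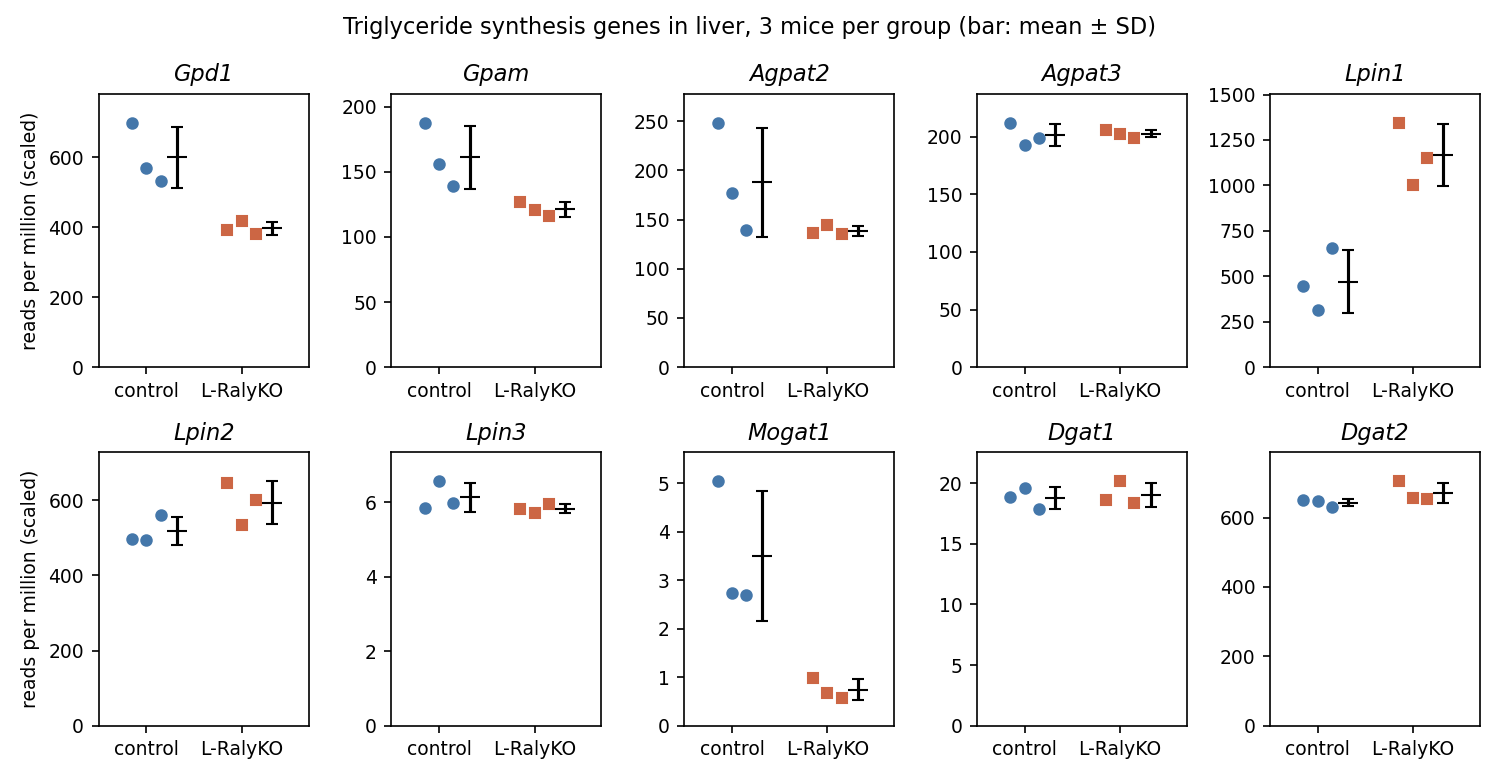
Value of each gene (vertical axis, scaled RPM, starting at 0) in the 3 control mice (circles, in the order 1 to 3) and the 3 L-RalyKO mice (squares), with the mean and SD of each group as a bar. Lpin1 is between 1002 and 1344 in L-RalyKO livers and between 314 and 655 in control livers, whereas the Mogat1 squares lie below 1 and its circles above 2.70.

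Promoter sequence is shown for Gpam, Mogat1 and Lpin1, the genes past the test that have an entry in the RefSeq promoter table, as the 250 bases before the start site in GRCm38.p6, 5′ to 3′ on the strand of the gene. Capitals mark matches to the motifs searched.
Gpam, chr19:55127239-55127488, − strand: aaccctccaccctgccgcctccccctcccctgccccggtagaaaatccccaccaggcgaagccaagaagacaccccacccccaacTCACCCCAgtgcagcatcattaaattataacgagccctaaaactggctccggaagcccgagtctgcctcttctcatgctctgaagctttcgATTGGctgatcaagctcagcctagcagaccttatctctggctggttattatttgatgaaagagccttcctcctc
Mogat1, chr1:78510810-78511059, + strand: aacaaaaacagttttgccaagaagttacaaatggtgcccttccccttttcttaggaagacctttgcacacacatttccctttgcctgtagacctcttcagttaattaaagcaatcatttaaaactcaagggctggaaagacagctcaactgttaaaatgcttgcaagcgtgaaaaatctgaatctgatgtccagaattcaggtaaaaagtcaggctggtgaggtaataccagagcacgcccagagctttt
Lpin1, chr12:16610967-16611216, − strand: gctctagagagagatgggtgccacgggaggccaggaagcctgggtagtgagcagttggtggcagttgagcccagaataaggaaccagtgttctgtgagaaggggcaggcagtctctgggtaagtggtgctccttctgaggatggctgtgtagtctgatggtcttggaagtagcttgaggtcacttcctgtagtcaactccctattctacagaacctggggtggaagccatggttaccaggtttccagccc

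The motifs searched were CCAAT, the core bound by NFY, CACGTG, an E-box, and TCANNCCA, a shortened sterol response element core, read on both strands of the window from 250 bases before to 50 after each start. The Gpam window printed above held TCACCCCA 165 bases and ATTGG, which is CCAAT on the other strand, 74 bases before the start. A second Gpam window, for another annotated start (chr19:55099478-55099727 upstream of it, not printed), held none of the motifs. The Mogat1 window held only an ATTGG that lies past the start, and the Lpin1 window held none of the motifs. The 7 genes with an entry have 11 windows, and of these 3 held CCAAT (1 each of Gpam, Lpin2 and Mogat1), 2 held CACGTG (Lpin2 and Lpin3) and 2 held TCANNCCA (Gpam and Lpin3). Of all 32851 windows of this length, 37.4% held CCAAT, 7.15% CACGTG and 15.7% TCANNCCA. These matches describe letters only, and the start of the Lpin1 window is 21196 bases from the nearest annotated Lpin1 start in the older build that the study used.

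Gpd1 fell in L-RalyKO liver. Gpd1 (ENSMUSG00000023019.6, chr15:99547946-99555436, + strand, NCBIM37) encodes the cytosolic glycerol 3-phosphate dehydrogenase, which makes glycerol 3-phosphate from dihydroxyacetone phosphate. Its values were 698, 569 and 531 in control mice and 392, 418 and 381 in L-RalyKO mice. Every L-RalyKO liver was below every control liver, and the controls spread more, with an SD of 87.5 against 19.0. The mean fell from 599.6 to 397, a log2 fold change of −0.58 (SE 0.095, 95% interval −0.80 to −0.37, limma adjusted p = 0.011), and Gpd1 stayed past the threshold in all 16 alternative analyses, with adjusted p between 2.9e-08 and 0.046. Exons of Gpd1 overlap a gene on the opposite strand, as do exons of Agpat2 and Mogat1, and it is not stated whether reads were counted by strand, so the values of these 3 genes may include reads of their neighbours.

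Gpam also fell, by a smaller amount. It encodes GPAT1, the mitochondrial acyltransferase that adds the first fatty acid (ENSMUSG00000024978.9, chr19:55142142-55201824, − strand). Control mice were at 188, 156 and 139 and L-RalyKO mice at 127, 121 and 116. The lowest control lay just above the highest L-RalyKO liver, and the first control mouse was well above the rest. The log2 fold change was −0.40 (SE 0.097, 95% interval −0.62 to −0.18, limma adjusted p = 0.0474). This call is at the edge of the threshold: it was kept in 7 of 16 alternatives, and the recovered reads tested with edgeR gave an adjusted p of 0.055. Without the first control mouse the log2 fold change was −0.28 (limma adjusted p = 0.075), and without the second, or any 1 of the L-RalyKO mice, adjusted p was between 0.092 and 0.124.

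Agpat2 and Agpat3 encode acyltransferases that add a fatty acid to lysophosphatidate, which gives phosphatidate, or to related lysolipids. Loss of AGPAT2 is known to cause congenital lipodystrophy. Agpat2 (ENSMUSG00000026922.7, chr2:26448577-26459937, − strand) was at 248, 177 and 139 in control mice and at 136, 145 and 136 in L-RalyKO mice. The L-RalyKO livers lay close together, at the level of the lowest control, and the groups overlapped. The log2 fold change of −0.39 (SE 0.171, 95% interval −0.78 to −0.01) did not pass (limma adjusted p = 0.215), and it rested on which control was present, being −0.59 (adjusted p = 0.032) without control mouse 3 and −0.17 (adjusted p = 0.401) without control mouse 1. Agpat3 (ENSMUSG00000001211.8, chr10:77731923-77815234, − strand) was at 212, 193 and 199 against 205, 203 and 199. Its log2 fold change was 0.01, with a 95% interval of −0.10 to 0.12, and its sign turned under total count scaling.

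By a chi-square per degree of freedom, control mouse 1 differed more from control mice 2 and 3 (71.1 and 84.3) than these did from each other (18.2). Control mouse 1 had the highest value of Gpd1, Gpam, Agpat2, Mogat1 and also Agpat3 of all 6 mice. It also had the highest value of 7 of the 10 adipocyte markers. Cidea, 1 of the 3 that were tested, passed the filter on low values only through that mouse. Cfd was at 12.6 in that mouse and at 2.74 and 3.46 in the other controls, and Cidea was at 14.1 against 0.526 and 0.892. The defining adipocyte markers Adipoq, Lep, Retn and Plin1 were low in every mouse, at 0.209 or below. Their few reads were mostly in control mouse 1, with 4 of Adipoq, 7 of Lep and 5 of Retn, where the other mice had 0 to 2 of Adipoq and 0 of Lep and Retn, and Plin1 had 2 reads in control mouse 1, 2 in control mouse 2 and 0 elsewhere. The summed level of the 10 adipocyte markers was 9.82 to 36.2 in control and 6.39 to 7.51 in L-RalyKO livers. Without control mouse 1, the log2 fold change was −0.47 for Gpd1 (limma adjusted p = 0.011), −1.10 for Mogat1 (adjusted p = 0.010) and 1.35 for Lpin1 (adjusted p = 0.045). Gpam lost its call without that mouse, and Agpat2 did not pass with or without it. Leaving out that mouse did not remove the difference in Cfd (log2 fold change −1.52, limma adjusted p = 0.0285). The part of the adipocyte markers in the differences of the 10 genes, Gpd1 and Mogat1 included, was not tested.

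Lpin1 was the one gene of the 10 that rose. Lipins dephosphorylate phosphatidate, and Lpin1 (ENSMUSG00000020593.7, chr12:16542475-16596576, − strand) was at 444, 314 and 655 in control mice and at 1344, 1002 and 1151 in L-RalyKO mice. The lowest L-RalyKO value was well above the highest control value, although controls differed among themselves by more than a factor of 2. The means were 471 ± 172 and 1166 ± 171 (SD, n = 3), a 2.47-fold difference and a log2 fold change of 1.36 (SE 0.229, 95% interval 0.84 to 1.88, limma adjusted p = 0.012). Lpin1 passed in 15 of 16 alternatives and missed the threshold in the edgeR test (log2 fold change 1.31, adjusted p = 0.091).

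The other lipins did not pass. Lpin2 (ENSMUSG00000024052.10, chr17:71531900-71599157, + strand) was at 498, 494 and 560.0 in control and at 647, 534 and 599.7 in L-RalyKO mice. One L-RalyKO value fell within the control range, and the log2 fold change was 0.20 (95% interval 0.01 to 0.38, limma adjusted p = 0.196), with no alternative past the threshold. Lpin3 (ENSMUSG00000027412.6, chr2:160706406-160731738, + strand) was low throughout, at 5.84, 6.56 and 5.97 against 5.82, 5.72 and 5.95, and its log2 fold change of −0.06 had a 95% interval of −0.24 to 0.12.

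Mogat1 had the smallest adjusted p of the 10. It encodes a monoacylglycerol acyltransferase, which makes diacylglycerol from monoacylglycerol and so bypasses the glycerol 3-phosphate route (ENSMUSG00000012187.7, chr1:78507566-78534748, + strand). Control mice were at 5.04, 2.74 and 2.70 and L-RalyKO mice at 0.989, 0.667 and 0.579, which rest on 169, 78 and 100 reads and on 34, 23 and 22 reads. All L-RalyKO livers were below all controls. The mean was 3.49 ± 1.34 in control and 0.745 ± 0.216 in L-RalyKO mice (SD, n = 3), a fold of 0.213. On log2(value + 1) the difference was −1.33 (SE 0.197, 95% interval −1.78 to −0.88, limma adjusted p = 0.00749), a scale that understates the change of so low a gene. On the recovered reads edgeR gave −2.23 and DESeq2 −2.24. All 15 alternatives that could test Mogat1 were past the threshold, with adjusted p between 7.1e-10 and 0.029, and a filter on a mean value of at least 5 removed the gene.

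The last step showed no change past the test. Dgat1 and Dgat2 encode the unrelated enzymes that turn diacylglycerol into triglyceride. Dgat2 (ENSMUSG00000030747.4, chr7:106302173-106331223, − strand) was at 651, 647 and 631 in control mice and at 705, 657 and 653 in L-RalyKO mice. The groups did not overlap, but they were close, and the log2 fold change of 0.06 (95% interval −0.06 to 0.18) had a limma adjusted p of 0.524. This fold change was 0.027 without L-RalyKO mouse 1 and 0.028 with total count scaling. Dgat1 (ENSMUSG00000022555.5, chr15:76332445-76342381, − strand) was at 18.9, 19.6 and 17.9 against 18.6, 20.2 and 18.4. Its values overlapped, and its log2 fold change of 0.02 (95% interval −0.13 to 0.17) turned sign under total count scaling.

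**Figure D2:**
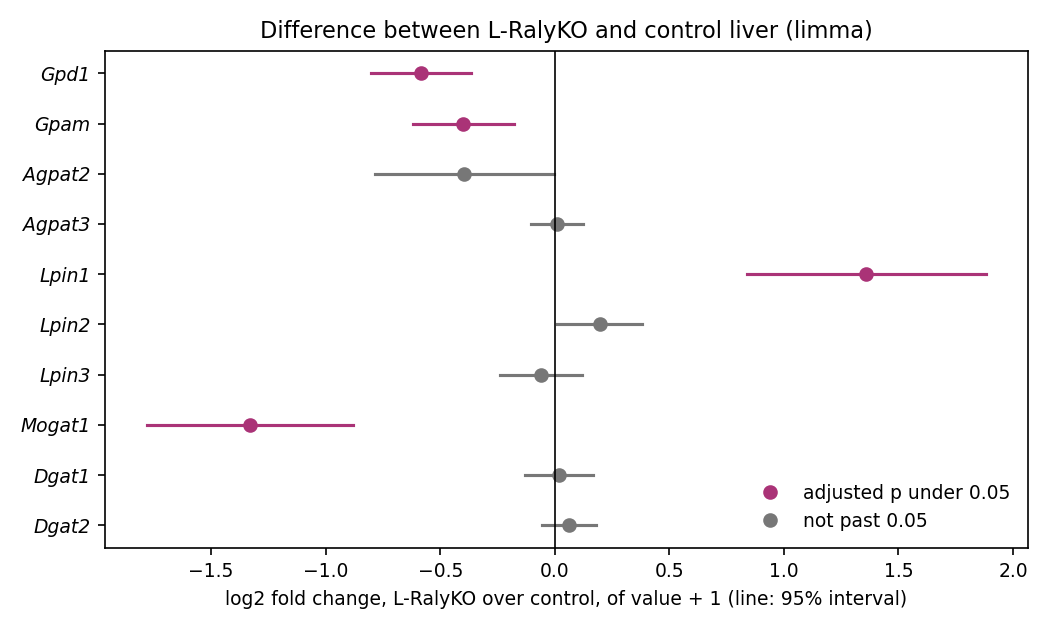
Log2 fold change of L-RalyKO over control (horizontal axis, on value + 1) for each gene in pathway order, with its 95% interval as a line. The intervals of Gpd1, Gpam, Lpin1 and Mogat1, drawn in purple, lie apart from 0, and these genes passed the adjusted test. Those of Agpat2 and Lpin2 also lie apart from 0, but neither gene passed, and those of Agpat3, Lpin3, Dgat1 and Dgat2 span 0.

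Divided by the length of the gene's exons, the levels of different genes can be set side by side, and on this scale of scaled RPM per kb Dgat2 was the highest of the 10 in control liver, at 286 ± 4.84 (SD, n = 3). Gpd1 followed at 202 ± 29.5, below every Dgat2 value. Agpat2 at 88.3 ± 26.1 and Lpin1 at 82.3 ± 30.0 did not differ beyond their spread, nor did Agpat3 at 26.6 ± 1.29 and Gpam at 25.4 ± 3.86. Between these pairs lay Lpin2 at 42.3 ± 3.02, a place that depends on the length used. With the longest coding transcript as the length, Lpin2 was at 91.7 ± 6.55 and Lpin1 at 83.7 ± 30.5, with overlapping values, Agpat2 was at 126 ± 37.3, and Agpat3 at 33.7 ± 1.63 lay above every Gpam value. Dgat1 at 6.16 ± 0.291, Mogat1 at 2.24 ± 0.859 and Lpin3 at 1.66 ± 0.103 were the lowest, and the last pair lay within the spread of Mogat1. In L-RalyKO liver, Dgat2 remained highest at 298 ± 12.7. Lpin1 at 204 ± 29.9 lay above Gpd1 at 134 ± 6.41 there, the reverse of their order in control liver, and Mogat1 was the lowest at 0.478 ± 0.139, and with the longest coding transcript Lpin1 was likewise above Gpd1 there, at 207 ± 30.5 and 139 ± 6.64.

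Within the lipins, Lpin1 made up 64.7%, 56.5% and 70.7% of the summed level per kb in control mice and 81.2%, 79.5% and 79.9% in L-RalyKO mice. The share was higher in every L-RalyKO liver and varied little among them. With the longest coding transcript of each gene as its length, the shares were 46.2% ± 7.57 and 65.9% ± 1.22 (SD, n = 3), lower in each group but in the same order. The summed lipin level per kb was 126 ± 32.8 in control and 254 ± 34.6 in L-RalyKO liver.

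Among the glycerol 3-phosphate acyltransferases, a lower Gpam stood beside a higher Agpat6, which encodes GPAT4 of the endoplasmic reticulum. Agpat6 was at 266, 230.2 and 281 in control and at 325, 329.9 and 308 in L-RalyKO mice (log2 fold change 0.31, SE 0.0746, limma adjusted p = 0.0445), without overlap, and like Gpam it kept its call in 7 of 16 alternatives. It missed the threshold when any 1 mouse other than control mouse 3 was left out (adjusted p = 0.074 to 0.134). The share of Gpam in the summed level per kb was 29.2%, 28.3% and 22.6% in control mice and 19.0%, 17.9% and 18.2% in L-RalyKO mice, and that of Agpat6 was 69.0% ± 3.87 and 78.4% ± 0.513. The sum over the 4 genes was 95.2 ± 7.36 in control and 104 ± 3.07 in L-RalyKO liver, with overlapping values. Agpat2 held 73.4% ± 4.90 of the summed level of Agpat1 to Agpat5 in control and 67.3% ± 0.588 in L-RalyKO mice, and Dgat2 held 97.9% ± 0.0718 and 98.0% ± 0.154 of the DGAT pair.

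**Figure D3:**
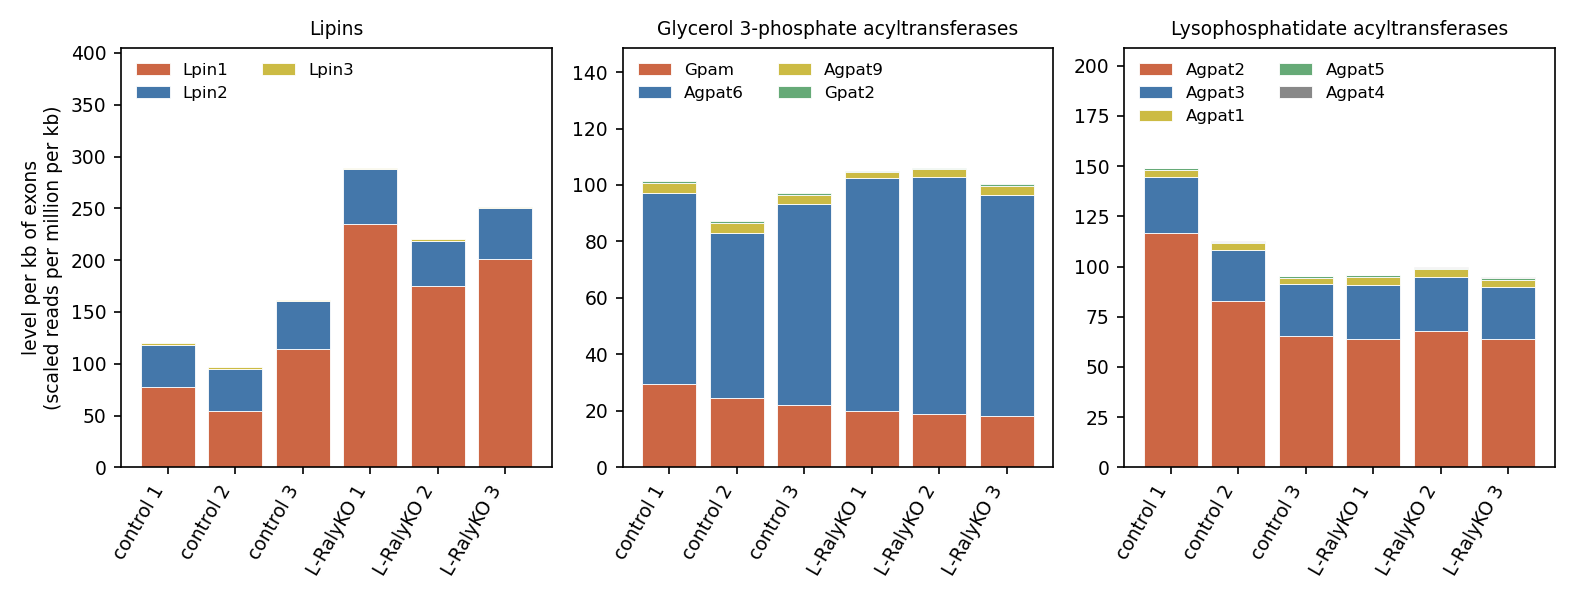
Level per kb of exons (vertical axis, scaled RPM per kb, stacked by gene) in each mouse for the lipins, the glycerol 3-phosphate acyltransferases and the lysophosphatidate acyltransferases. The Lpin1 part of the lipin bars is larger in all 3 L-RalyKO mice, and the Agpat2 part is largest in the first control mouse.

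The genes around these 10 were read from 9 lists of the pathway and its regulators, which hold 117 other genes in the table. Of these, 102 were tested, 9 were higher and 10 were lower, with a median log2 fold change of 0.01. Counts for each list stand beside the share of all tested genes that passed, 6.55% (3.36% higher and 3.19% lower). The lists were chosen with earlier results of these data known, so the counts describe them and do not test them. In the supply of glycerol 3-phosphate, 2 of 5 tested genes fell, Gpd1 and Gpd2, the mitochondrial dehydrogenase that oxidises glycerol 3-phosphate. Gpd2 went from 80.3 ± 11.7 to 53.9 ± 2.74 (log2 fold change −0.56, limma adjusted p = 0.012) and passed in all 16 alternatives, whereas Gpd1l, Gyk and Aqp9 did not pass. Among 10 tested acyltransferases of the first steps 1 rose and 1 fell, Agpat6 and Gpam, with a median of −0.09. Lpin1 was the only one of 8 tested phosphatidate phosphatases and lipin regulators to pass, and Mogat1 the only one of the 4 tested genes Mogat1, Dgat1, Dgat2 and Awat2, a wax alcohol acyltransferase, while Mogat2 was too low to be tested.

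In the phospholipid branch, 2 of 19 tested genes passed, both higher, with a median of −0.01, where 6.55% of all tested genes passed and 3.36% were higher. Chka, a choline kinase that begins phosphatidylcholine synthesis, went from 6.93 ± 0.32 to 12.2 ± 1.53 (log2 fold change 0.73, limma adjusted p = 0.00394), and Etnk2, an ethanolamine kinase, from 345 ± 5.2 to 423 ± 14.1 (0.29, adjusted p = 0.00995). Both act ahead of the step that consumes diacylglycerol, and both passed in all 16 alternatives. In fatty acid activation, 2 of 13 rose, namely Acsl4, an acyl-CoA synthetase with a preference for arachidonate (0.45, adjusted p = 0.0072), and Acsm1, a medium-chain acyl-CoA synthetase (0.25, adjusted p = 0.0214). Acsm1 missed the threshold without control mouse 1 (adjusted p = 0.072) or any 1 of the L-RalyKO mice (0.052 to 0.092), and with no intensity trend (0.057).

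Of 18 regulators with known action on these genes, 2 rose and 3 fell, against a median of 0.01 over the list. Srebf1, which encodes SREBP1, a factor known to act on Gpam, went from 311 ± 12.0 to 200.5 ± 40.1 (log2 fold change −0.65, limma adjusted p = 0.0173). Pparg, a nuclear receptor for which Mogat1 is a known target, went from 13.4 ± 2.73 to 7.93 ± 0.912 (−0.68, adjusted p = 0.0214). Like most of the adipocyte markers, Pparg was highest in control mouse 1, at 16.6 against 11.6 and 12.2 in the other controls. Insig1 and Insig2, which retain SREBP precursors in the endoplasmic reticulum, moved apart, by 0.56 (adjusted p = 0.0211) and −0.58 (adjusted p = 0.0190). Ppargc1b, a coactivator of lipogenic factors, rose by 0.57 (adjusted p = 0.0204), while Ppargc1a, a coactivator known to induce Lpin1 in fasting, differed by −0.21 and did not pass (adjusted p = 0.406). Mlxipl, which encodes the glucose-responsive factor ChREBP, differed by −0.25 on the log2 scale (95% interval −0.40 to −0.10) and did not pass (adjusted p = 0.0604). In 4 of 16 alternatives Mlxipl did pass. Without L-RalyKO mouse 1 all 5 calls missed the threshold, with adjusted p between 0.065 and 0.076. So did Srebf1 (0.063), Insig1 (0.074) and Ppargc1b (0.071) without control mouse 1, Insig1 (0.058) and Ppargc1b (0.053) without L-RalyKO mouse 2, and Pparg (0.066) and Ppargc1b (0.059) without L-RalyKO mouse 3. Pparg (0.054) and Ppargc1b (0.052) also missed when all genes with a read were tested.

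The list with the most calls held genes that respond to feeding and fasting, where 1 of 19 tested genes rose and 6 fell, with a median log2 fold change of −0.17. Over all tested genes 3.36% rose and 3.19% fell, but this list too was chosen with earlier results of these data known. Pck1, the gluconeogenic enzyme induced by fasting, went from 3185 ± 382 to 5448 ± 149.9 (log2 fold change 0.78, limma adjusted p = 0.00312). The genes that fell were Acly, Acaca, Fasn and Elovl6, which make and elongate fatty acids, with log2 fold changes between −0.62 and −0.30, Pklr of glycolysis at −0.45, and G6pc, the glucose 6-phosphatase that fasting raises, at −0.61 (adjusted p = 0.0125). Acly, Acaca, Fasn and G6pc were highest in control mouse 1, Pklr in control mouse 2 and Elovl6 in control mouse 3. The part of the adipocyte markers in these differences was not tested. Fasn (adjusted p = 0.0445) passed in 8 of 16 alternatives. Of the fits that left out 1 mouse, it passed without control mouse 3 and missed without each of the others (0.053 to 0.116). It also missed with edgeR (0.067), no intensity trend (0.081) or all genes with a read (0.091). Acaca missed without L-RalyKO mouse 1 or 3 or control mouse 1 or 2 (0.071 to 0.0997) and with no intensity trend (0.063). Among 17 tested core clock genes, 1 rose, a share near the 6.55% called over all tested genes (Nfil3, 0.73, adjusted p = 0.0185), a call that was lost without any 1 of the L-RalyKO mice (0.055 to 0.061). Fasting is mentioned only for a qPCR measurement, the hour of collection is not given, and the part of either in the change of Lpin1, which is known to vary with both, was not tested.

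**Figure D4:**
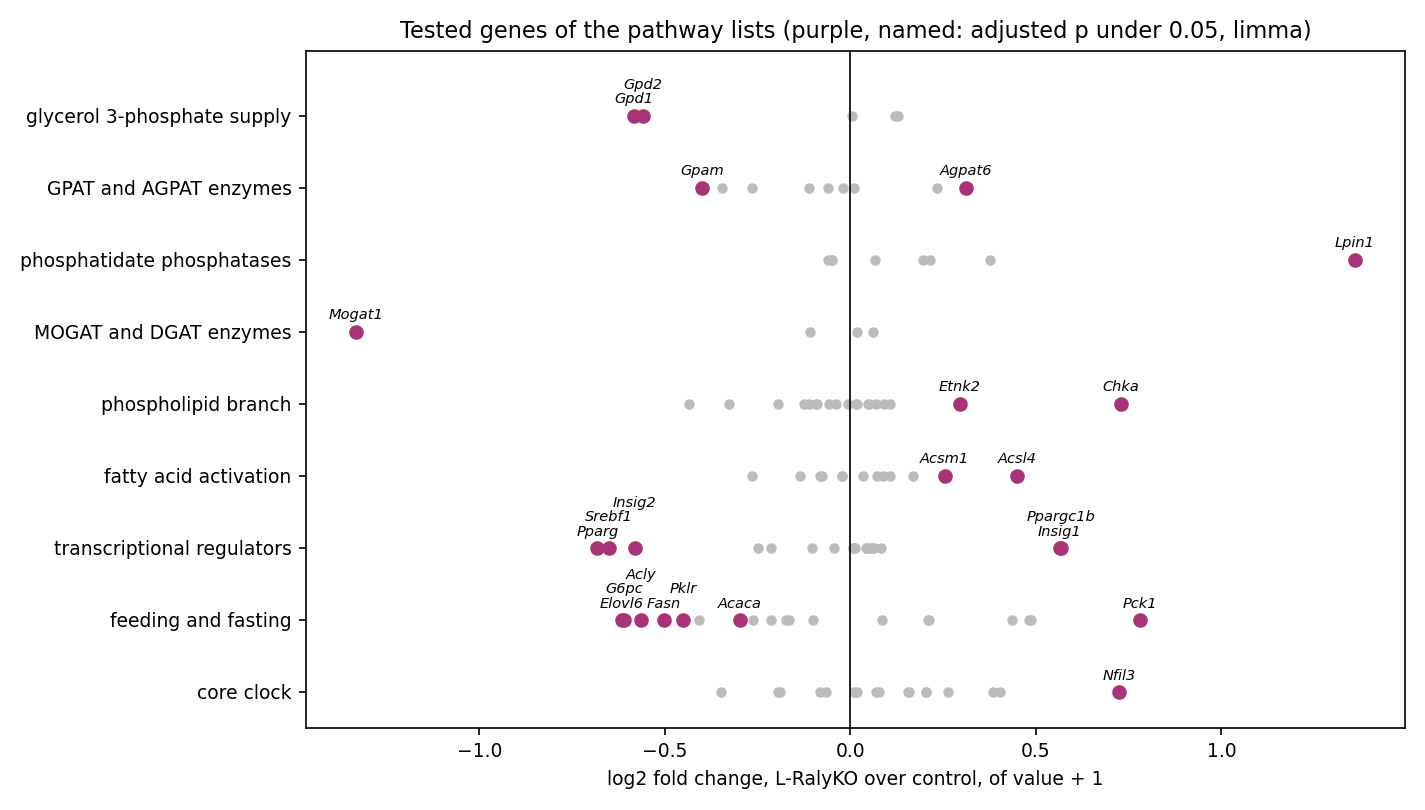
Log2 fold change of L-RalyKO over control (horizontal axis, on value + 1) of every tested gene in the 9 lists, 1 row per list, with the 23 genes past the adjusted test in purple and named. Lpin1 and Mogat1 lie farthest from 0 on opposite sides, and 6 of the 7 named genes of the feeding and fasting list lie on the lower side.

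The 5 tested genes outside the 10 whose log2(value + 1) followed Mogat1 most closely over the 6 mice were Psmd14, Cep83os, Sco2, Gpd2 and Prorsd1, with Pearson's r between 0.996 and 0.997. Like Mogat1, each was highest in control mouse 1, and its L-RalyKO values all lay below its control values. This likeness follows from the way the 5 genes were picked. The coefficients include the difference between the groups and describe these 6 points only.

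**Figure D5:**
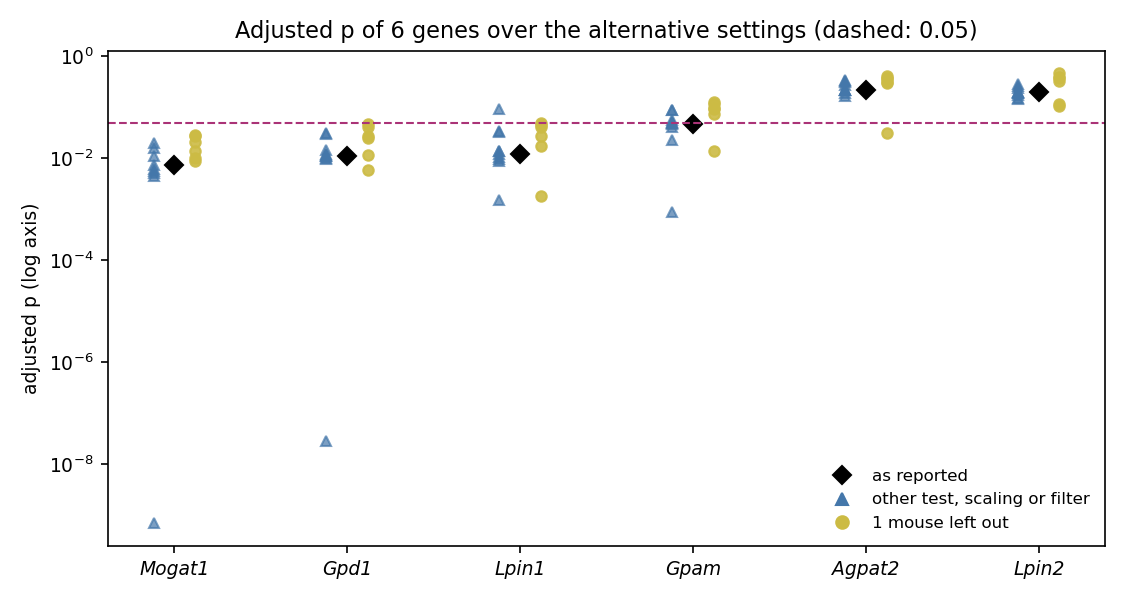
Adjusted p (vertical axis, log scale) of 6 genes as reported (diamonds), under another test, scaling or filter (triangles) and with 1 mouse left out (circles), with the threshold of 0.05 as a dashed line. Mogat1 and Gpd1 stay below the line throughout, 1 triangle of Lpin1 is above it, Gpam lies on both sides, Agpat2 is below it once and Lpin2 never.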

How the data were processed

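Liver RNA was sequenced with a stranded kit as paired reads of 150 bases. A figure legend states n = 4 per group for this experiment, and 3 per group were analysed here. The study aligned reads with TopHat to mm9 and quantified FPKM with Cufflinks 2.0.2. The deposited values are another quantity, a signal that from its steps equals reads per gene over an effective library size, and how the authors made it is not given in the sources used here. Every value came out as a whole number of reads, within 0.01 of a read, and these recovered reads were used in alternatives only. The main comparison used limma 3.58.1 in R 4.3.3 (log2(value + 1), intensity trend), after genes whose mean was below 1 had been left out. The 95% intervals are limma's, from the spread between mice, and the value of 3 reads covers counting error only. Scripts were tested on simulated data first. The genes and lists were chosen with earlier results of these data known, from general knowledge of the pathway. Named were all 10 genes, every list gene with an adjusted p under 0.05, Raly, Srebf1, Mlxipl and the 5 genes most correlated with Mogat1. Others (Hnf4a, the adipocyte markers, Ppargc1a, Gpd1l, Gyk, Aqp9, Awat2 and Mogat2) were chosen after their values were seen. Alternatives were edgeR 4.0.16, DESeq2 1.42.0, limma voom, no trend, 2 scalings, another pseudocount, 2 filters, a replicate block and leaving out each mouse. Lengths are unions of GENCODE vM1 exons. ATAC-seq and ChIP-seq samples were not analysed here.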

Additional observations from a re-analysis of the deposited data

How the results depend on the processing

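Of the 10 genes, edgeR's quasi-likelihood test called 2, both lower (Mogat1 and Gpd1). Every other alternative called 3 to 5, and leaving out each mouse in turn also gave 3 to 5. Sign turned only for genes near 0: Agpat3 was at −0.025 and Dgat1 at −0.015 with total count scaling, and leaving out each mouse gave −0.021 to 0.047 and −0.023 to 0.047. Over all genes, 758 were called, against 783 with edgeR on the recovered reads (100% whole), 1084 with DESeq2 and 484 when all genes with at least 1 read were tested. Leaving out each mouse gave 335 (without L-RalyKO mouse 1) to 812, with 440 and 502 without L-RalyKO mice 2 and 3 and 368 without control mouse 1. The pathway lists had 23 calls, 12 to 26 with a mouse left out (12 without L-RalyKO mouse 1, 15 without L-RalyKO mouse 3). The marker lists had 2, 5 with DESeq2 and 1 with edgeR, limma voom, no trend, all genes or a mean value of at least 5, and 0 to 3 with a mouse left out. Raly stayed between −2.84 and −2.63. The length of the longest coding transcript, for shares and levels per kb, was an alternative chosen after seeing the data. Mogat1 in L-RalyKO liver rests on 22 to 34 reads.

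The labels number the mice of both groups 1 to 3, but these are different animals. Deviations from the group means correlated at 0.066, −0.024 and 0.020 between mice of the same number, not all above 0.1, and not every mouse correlated best with its own number, so the fit was not paired. With a replicate block, 704 genes, 4 of the 10 genes (Lpin1, Mogat1, Gpd1 and Gpam), 26 list genes and 3 marker genes were called, and Raly was at −2.67. Agpat6 missed the threshold (0.31, adjusted p = 0.068).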
